A study of Mus musculus with 16 samples.

Results

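Mouse endometrial epithelial organoids labelled as conditional knockout or control for Tgfbr2 were compared after hormone treatment, in 8 of the 16 RNA sequencing libraries of the series. Tgfbr2 encodes the type II receptor of transforming growth factor beta (TGF-beta). The control group held 4 libraries, M9 to M12, with the genotype Control (Tgfbr2 FF), in which the gene is floxed and no Cre is listed. The conditional knockout (cKO) group held 4 libraries, M13 to M16, with the genotype Tgfbr2 cKO (Tgfbr2 PRcre+), whose Cre recombinase is driven by the progesterone receptor gene. Both groups were cultured for 2 days and then given 10 nM estradiol (E2) for 2 days, and for the next 4 days the same E2 dose together with 1 µM of the synthetic progestin medroxyprogesterone acetate (MPA). The other 8 libraries, 4 of each genotype (M1 to M4 and M5 to M8), received vehicle for 6 days and are used below only to set the hormone result beside them. The libraries were picked by their titles and no measured value was used. Since Cre is listed for the cKO group alone, loss of the receptor and presence of Cre cannot be told apart, and the strain, age and number of animals are not given in the sources used here.

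TGF-beta ligands are released from latent complexes and bind the type II receptor, which then phosphorylates a type I receptor. The type I receptor phosphorylates SMAD2 and SMAD3, which join SMAD4 and enter the nucleus to raise or lower transcription of their targets. In the endometrium, estradiol drives growth of the epithelium, and progestins acting through the progesterone receptor oppose that growth and switch on secretory genes. Because the Cre depends on the progesterone receptor promoter, cells that do not use that promoter may keep the gene.

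The control libraries held 14381840 to 19290170 recovered reads and the cKO libraries 14372111 to 19102256. Epithelial identity genes such as keratins and cadherin were high in every library, with a mean log2(normalized count + 1) over the list of 12.32 to 12.46 in control and 12.44 to 12.62 in cKO. Genes of stromal fibroblasts were not level within either group. Their mean log2 level was 7.47, 4.67, 4.78 and 8.91 in M9 to M12 and 5.36, 5.68, 5.12 and 8.51 in M13 to M16, so that M9, M12 and M16 stood above the other 5 libraries. The mean log2 level of the macrophage list was highest in the control library M12, at 9.10, and lay between 5.09 and 6.78 in the cKO libraries. No defining marker of either list was at 0 in all 8 libraries. The libraries carry epithelial labels, and the stromal and macrophage transcripts were present beside the epithelial ones. Bulk RNA cannot tell fewer cells of a type from less RNA per cell, and this holds for every difference below.

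**Figure D1:**
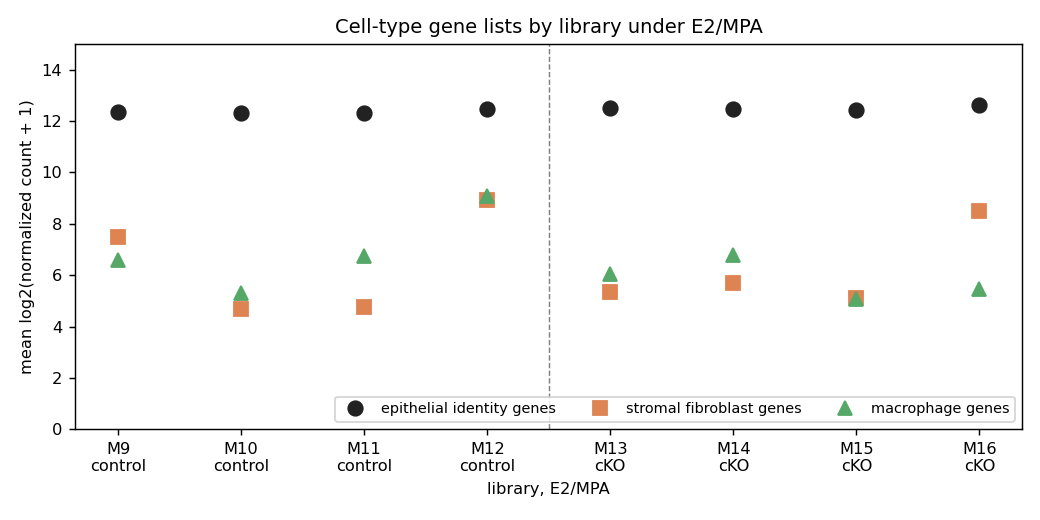
Mean log2(normalized count + 1) of the epithelial identity, stromal fibroblast and macrophage gene lists (y axis) in each of the 8 E2/MPA libraries (x axis), 1 point per list and library. The epithelial list stays between 12.32 and 12.62, while the stromal list ranges from 4.67 in M10 to 8.91 in M12 and is also high in M9 and M16.

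Lypd5 was the 1 gene that passed the test across all genes, and it rose in the cKO organoids. It encodes a small membrane-anchored protein of the LY6/PLAUR domain family. Its normalized counts were 6.87, 13, 6.91 and 4.4 in the control libraries M9 to M12 and 66.6, 96.9, 78.7 and 47.3 in the cKO libraries M13 to M16. Every cKO library was above every control library, and the lowest cKO value, in M16, was still well above the highest control value, in M10. The log2 difference was 3.10 (SE 0.37, 95% interval 2.31 to 3.89), an 8.58-fold change on the log2(value + 1) scale, with an adjusted p of 0.00863 in limma. Expression was low, with 31 recovered reads over the 4 control libraries and 279 over the 4 cKO libraries. edgeR also called Lypd5 (adjusted p = 0.019), as did DESeq2 (adjusted p = 9.06e-09). Among 16509 genes tested, this 1 call is 0.00606%, and the next smallest adjusted p in limma was 0.140. In limma the adjusted p of Lypd5 was 0.0806 when the 8 E2/MPA libraries were fitted alone, and between 0.0517 (without M13) and 0.0673 (without M14) when M9, M11, M13, M14 or M15 was left out.

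The promoter windows of Lypd5 and of 2 other genes described below are shown because these genes stood among the largest differences in either direction. Each holds 250 bases before and 50 after a transcript start, from RefSeq on GRCm38.p6, printed 5′ to 3′ on the gene's strand. Capitals mark any match on either strand to CAGAC (part of the palindromic element bound by SMADs) or AGAACA (part of the element bound by progesterone and glucocorticoid receptors).
Lypd5, chr7:24348946-24349245, plus strand: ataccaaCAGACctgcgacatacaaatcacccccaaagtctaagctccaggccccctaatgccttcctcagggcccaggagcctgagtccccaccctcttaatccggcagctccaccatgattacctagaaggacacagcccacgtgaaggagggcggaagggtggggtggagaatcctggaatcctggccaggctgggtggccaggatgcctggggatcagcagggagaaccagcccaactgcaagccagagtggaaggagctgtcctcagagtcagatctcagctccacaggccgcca
Cxcr4, chr1:128592250-128592549, minus strand: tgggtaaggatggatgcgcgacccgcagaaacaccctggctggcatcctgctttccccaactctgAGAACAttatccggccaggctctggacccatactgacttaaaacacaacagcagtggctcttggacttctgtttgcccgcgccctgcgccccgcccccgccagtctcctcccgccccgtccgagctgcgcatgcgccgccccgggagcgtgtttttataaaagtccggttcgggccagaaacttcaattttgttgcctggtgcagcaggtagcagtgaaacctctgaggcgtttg
Lrp2, chr2:69585980-69586279, minus strand: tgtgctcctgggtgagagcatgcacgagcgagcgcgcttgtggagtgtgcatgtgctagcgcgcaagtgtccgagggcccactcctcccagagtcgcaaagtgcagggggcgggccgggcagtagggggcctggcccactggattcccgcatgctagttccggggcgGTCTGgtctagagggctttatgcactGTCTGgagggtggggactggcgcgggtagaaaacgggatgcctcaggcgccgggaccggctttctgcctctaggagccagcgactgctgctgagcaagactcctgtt
The Lypd5 window held 1 match to CAGAC and 0 to AGAACA. The Cxcr4 window held 0 and 1, and the Lrp2 window 2 and 0. Of all 32851 RefSeq windows of this length, 49.6% held CAGAC and 19% held AGAACA, so a match is common and describes the letters only.

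Tgfbr2 itself overlapped between the groups. Its normalized counts were 5152, 4377, 4103 and 7794 in M9 to M12 and 3941, 4269, 3568 and 5526 in M13 to M16, with the highest value of each group in its library of highest stromal level, M12 and M16. The log2 difference was -0.28 (SE 0.21, adjusted p = 0.69, limma). Which exons are removed is not given in the labels, and a gene-level count can include reads from the exons that remain, so this value does not check the genotype. The progesterone receptor gene Pgr, whose promoter drives the Cre, had values of 2032, 2150, 2104 and 1252 in control and 1610, 1635, 1701 and 1500 in cKO, with a log2 difference of -0.19 (SE 0.19, adjusted p = 0.779). The estrogen receptor gene Esr1 had a log2 difference of -0.26 (SE 0.15, adjusted p = 0.569). For both receptors the lowest control value was in M12, and the groups overlapped.

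Beyond Lypd5, the groups were set apart by a simple count of genes whose 4 cKO values all lay above or all lay below the 4 control values. There were 1019 such genes (6.17%), 631 of them higher in cKO (3.82% of genes tested) and 388 lower (2.35%). The higher ones differed little, with a median log2 difference of 0.28 and 35 genes at 2-fold or more. The lower ones differed more, with a median of -0.61 and 93 genes at 2-fold or more. None of these genes except Lypd5 passed the limma test, and they are given as values. At an unadjusted p under 0.05 there were 1794 genes (10.9%), of which 969 were higher (5.87%) and 825 lower (5%).

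The largest of these higher genes after Lypd5 was Palmd, which encodes the paralemmin-related protein palmdelphin. Its normalized counts were 40.0, 8, 22.5 and 41.8 in M9 to M12 and 111, 76.6, 123 and 222 in M13 to M16, with a log2 difference of 2.33 (SE 0.46, adjusted p = 0.154, limma). Cxcr4, the receptor of the chemokine CXCL12, had 52.6, 15, 24.2 and 68.2 in control and 112, 77.5, 153 and 354 in cKO, a log2 difference of 2.08 (SE 0.56, adjusted p = 0.202). Both genes were highest, within each group, in the stroma-rich libraries M12 and M16, yet the lowest cKO value, in M14, still lay above the control value in M12. Tacr1, the receptor of the neuropeptide substance P, had 30.9, 19, 25.9 and 28.6 in control and 111, 31.7, 93.5 and 83.9 in cKO, where M14 was close to the highest control value. Cyp4a12a, a fatty acid hydroxylase, had 25.2, 39, 23.3 and 42.9 in control and 67.8, 112, 122 and 74.2 in cKO.

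Keratin and cornified envelope genes of stratified epithelium lay in both directions. Of 19 squamous and basal epithelium genes 11 were higher and 8 lower, with a median log2 difference of 0.09, which was -0.01 without M9, M12 and M16. Sprr1a was the 1 member without overlap, where 6.17% of all genes tested had none, and the lowest member was Krt14 at -1.98. Calml3, a calmodulin-like gene of that list, had 191, 1033, 1109 and 15.4 in control and 152, 73.1, 324 and 12.9 in cKO, with overlapping groups and a difference of -1.89 with the stromal covariate described below (adjusted p = 0.0401, limma). Crct1, a gene of the epidermal differentiation complex, had 1506, 1587, 1360 and 819 in control and 2641, 2423, 2900 and 2249 in cKO, a log2 difference of 0.99 (SE 0.20, adjusted p = 0.154, limma). Sprr1a, a cornified envelope precursor, had 3671, 3133, 4853 and 5993 in control and 7267, 9169, 7827 and 8434 in cKO, a log2 difference of 0.93 (SE 0.23, adjusted p = 0.181). Lce3c, of the late cornified envelope family, and the hair keratin genes Krt84 and Krt25 differed by 1.21, 1.57 and 1.09 on the log2 scale. In these 5 genes every cKO library exceeded every control library, but they were named by rules that take genes without overlap. Near-identical family members could share reads in the Lce, Sprr and Cyp4a families, so these values are uncertain. The other genes among the 15 largest were Mill2, C2cd4a, Bpnt1, Ctse, Nt5c1a and Cyp3a13, with log2 differences from 0.97 for Cyp3a13 to 1.16 for Mill2.

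Ranked by the same rule, the lower genes were led by Slc2a3, which encodes the glucose transporter GLUT3. Its normalized counts were 151, 4413, 2763 and 186 in M9 to M12 and 25, 56.4, 11.4 and 84.9 in M13 to M16, a log2 difference of -4.43 (SE 1.20, adjusted p = 0.202, limma). The 2 stroma-poor control libraries, M10 and M11, were far above all others, and M9 and M12 were nearer to the cKO libraries. Lrp2, the endocytic receptor megalin, had 411, 1409, 1570 and 191 in control and 76.1, 167, 54.7 and 36.6 in cKO, a log2 difference of -3.16 (SE 0.99, adjusted p = 0.257). Again M10 and M11 were highest. Slc41a3, a magnesium transporter gene, had the same arrangement, with 33.2, 195, 148 and 45.1 in control and 19, 22, 25.1 and 19.4 in cKO. Adamts8 (a secreted metalloprotease), Lyz1 (lysozyme) and Sdr16c6 (a short-chain dehydrogenase) also had their 2 highest values in M10 and M11, with log2 differences of -2.28, -1.77 and -1.65.

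Most of the other lower genes did not have their 2 highest values in M10 and M11. Ifi202b, an interferon-inducible gene of the p200 family, had 578, 157, 451 and 182 in control and 65.4, 34.3, 36.5 and 44.1 in cKO, a log2 difference of -2.73 (SE 0.47, adjusted p = 0.14, limma). DESeq2 called it (adjusted p = 3.96e-06), and reads shared with other members of its gene cluster make the count uncertain. Fst, which encodes the activin antagonist follistatin, had 327, 226, 198 and 938 in control and 44, 71.3, 53.6 and 174 in cKO, a log2 difference of -2.20 (SE 0.71, adjusted p = 0.28). Each group's highest Fst value was in its library of highest stromal level. H60c, a ligand of the receptor NKG2D, had 105, 174, 142 and 322 in control and 38.1, 87.2, 50.1 and 60.2 in cKO, a log2 difference of -1.58. Penk, the enkephalin precursor, had 1826, 2142, 1068 and 2006 in control and 713, 334, 357 and 997 in cKO, a log2 difference of -1.66. The macrophage mannose receptor gene Mrc1 differed by -3.71, with 36.6, 12, 50.1 and 419 in control and 1.19, 7.04, 1.14 and 8.6 in cKO, and its control mean rests on M12, the library with the highest macrophage level. How far macrophage RNA entered this difference was not tested. Alox15, Alox12e and Fabp4, which act on or carry fatty acids, and Ltbp4, described below, completed the 15. The first 3 had log2 differences of -1.78, -1.59 and -1.56, and Alox15, unlike the others of this paragraph, was highest in M10 and M11.

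**Figure D2:**
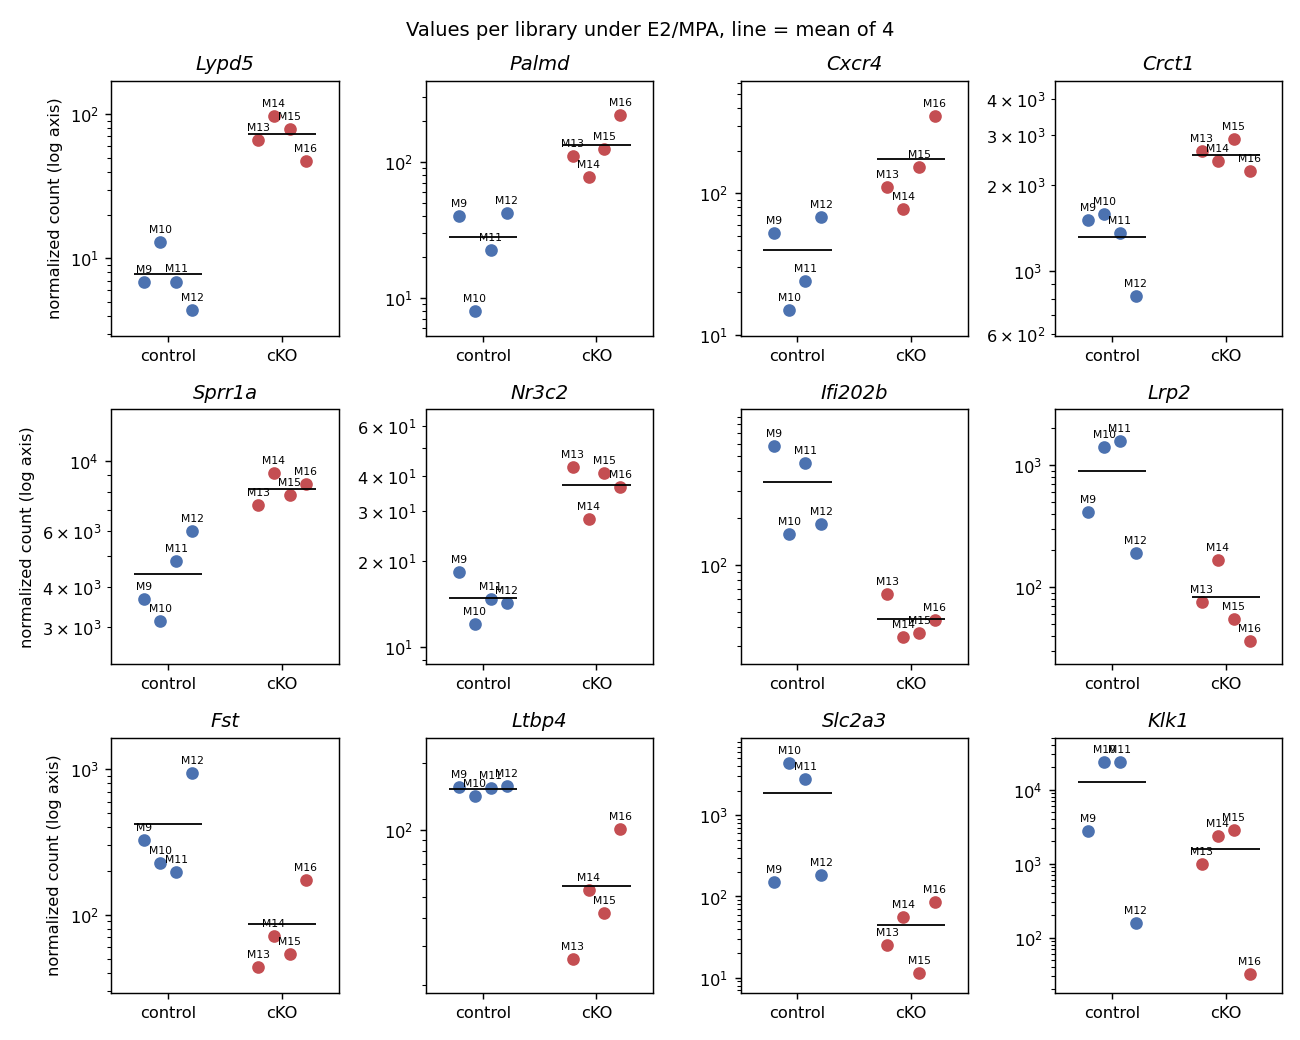
Normalized counts on log axes (y) of 12 genes in the 4 control and 4 cKO libraries under E2/MPA (x), 1 labelled point per library, with the line at the mean of 4. In the panels other than Klk1 the 2 groups do not overlap, and Slc2a3 and Klk1 are highest in M10 and M11.

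DESeq2 called 185 genes (1.24% of the 14890 to which it gave an adjusted p), 119 higher (0.799%) and 66 lower (0.443%). Of these calls, 158 had groups that did not overlap, against 6.17% of all genes tested. Calls and overlap were read from the same values, so the overlap is no separate support. The 10 genes of lowest p in DESeq2 held, beside Lypd5, Ifi202b and Palmd, 7 other genes that were higher in cKO. Phc2, a Polycomb group gene, had 2947, 2660, 2578 and 2804 in control and 3830, 3783, 3655 and 3911 in cKO, a log2 difference of 0.47 (SE 0.08, adjusted p = 0.000172 in DESeq2 and 0.14 in limma). Pxn, the focal adhesion protein paxillin, had 4257, 4064, 4078 and 4098 in control and 4960, 4593, 4909 and 5230 in cKO, a log2 difference of 0.25 (adjusted p = 8.46e-06 in DESeq2). Hpcal4, a neuronal calcium sensor gene, had 126, 110, 131 and 114 in control and 252, 232, 248 and 214 in cKO, a log2 difference of 0.97. Flii, Mbp, Brox and Tmc4 were the others, with log2 differences from 0.26 for Brox to 0.38 for Mbp. In these 7 genes every cKO library exceeded every control library.

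Vehicle-treated organoids of the same genotypes were set beside these values. Libraries whose numbers lie 8 apart (M1 and M9, M2 and M10, and so on) deviated together, with a correlation of 0.496 across genes in limma, and the stromal level was high in M1, M4 and M8 (6.83, 8.74 and 7.81) as in M9, M12 and M16. The labels do not say whether such libraries share a source, so genes shared between the treatments may not come from separate material. Under vehicle 271 genes were higher in every cKO library than in every control library (1.64%) and 226 lower (1.37%). Of the higher genes 79 were shared by both treatments, which is 12.5% of the E2/MPA genes and 29.2% of the vehicle genes. Of the lower genes 25 were shared, 6.44% of the E2/MPA genes and 11.1% of the vehicle genes. Lypd5 had vehicle values of 9.78, 4.51, 6.55 and 8 in M1 to M4 and 56.1, 63, 27.1 and 25.9 in M5 to M8, a log2 difference of 2.36 (SE 0.37, adjusted p = 0.0723, limma). Ifi202b had 616, 166, 576 and 249.5 in control and 32.5, 35.3, 21.5 and 51 in cKO, a difference of -3.34 (SE 0.47, adjusted p = 0.0628). Crct1, Cyp4a12a, Phc2, Pxn, Flii, Mbp and Brox were also higher, and Mrc1, H60c, Muc16 and Cldn6 also lower, without overlap under vehicle. Fst and Lrp2 had vehicle differences of -2.38 and -4.01 (SE 0.71 and 0.99), with groups that overlapped.

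Other genes had little difference under vehicle. Slc2a3 differed by -0.68 there, Alox15 by -0.36, Ctse by -0.04 and Bambi by 0.07. The test of the difference between the 2 genotype effects passed for 0 genes in limma, in edgeR and in DESeq2, with 309, 318 and 297 genes at an unadjusted p under 0.05. The unadjusted p of that test was 0.0429 for Slc2a3, 0.023 for Bambi and 0.0327 for Ctse, so a genotype effect particular to E2/MPA was not shown for any of them. When a random block paired libraries 8 numbers apart, 1056 genes had an unadjusted p under 0.05 and 0 passed (smallest adjusted p 0.366). The block gave an unadjusted p of 0.0245 for Slc2a3, 0.0052 for Bambi and 0.00472 for Ctse, with adjusted p of 0.712, 0.666 and 0.643 in limma. Of the genes named in the text, Klf6 had the lowest unadjusted p, 0.0116 without the block and 0.000307 with it (limma). Its adjusted p with the block was 0.366. Under vehicle limma called 0 genes (984 at an unadjusted p under 0.05), edgeR 0 (973) and DESeq2 14 (0.13%).

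**Figure D3:**
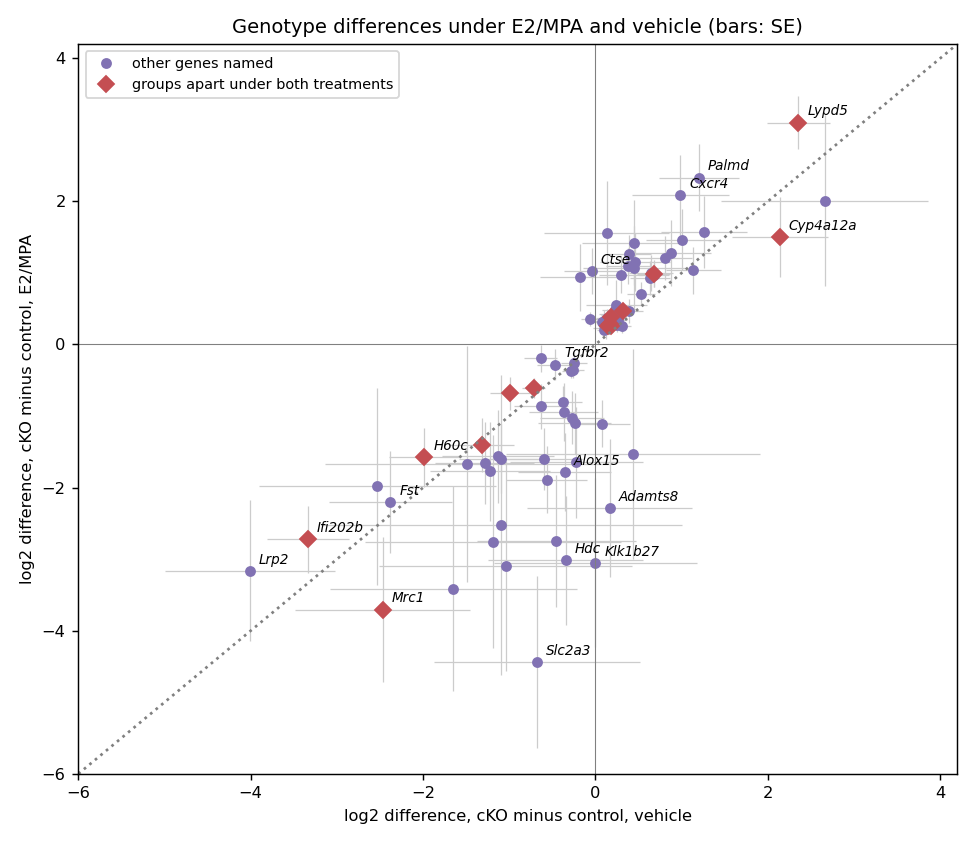
Log2 difference between cKO and control under vehicle (x) and under E2/MPA (y) for the 89 genes named in the text, with bars of 1 SE and a dotted line of equal difference. Lypd5, Ifi202b and other red diamonds do not overlap between genotypes under either treatment, while Slc2a3, at -4.43 under E2/MPA, is at -0.68 under vehicle.

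Genes of the TGF-beta pathway lay on both sides of 0. Of 22 ligands, receptors and SMADs tested, 14 were higher and 8 lower, with a median log2 difference of 0.11 against -0.01 over all genes tested, of which 48.1% were higher. Among the ligand-binding proteins, Ltbp4, which tethers latent TGF-beta to the matrix, was lower, with 156, 142, 155 and 158 in control and 26.2, 53.7, 42.2 and 101 in cKO (log2 difference -1.60, SE 0.44, adjusted p = 0.202, limma). The control values were nearly level, and the cKO value nearest to them was in M16. Bambi, a decoy receptor that blocks TGF-beta signalling, had 109.9, 171, 131 and 112 in control and 45.2, 72.2, 66.1 and 57 in cKO (log2 difference -1.11, SE 0.33, adjusted p = 0.246). Smad3, a signal carrier, had 2882, 2540, 2856 and 2905 in control and 3530, 3256, 3449 and 3893 in cKO, a log2 difference of 0.34. Tgif1, a corepressor that binds SMADs, had a log2 difference of 0.37, also without overlap. Of 29 target genes of the SMADs, 15 were higher and 14 lower, with a median of 0.07. Among them only Tgif1 and Cdkn1a (higher) and Bambi (lower) had groups that did not overlap, beside 6.17% of all genes tested. In the list of bone morphogenetic protein, activin and Id genes, 13 of 22 were higher, the median was 0.07, and Fst was lower and Acvr1b and Grem1 higher without overlap. Acvr1b, an activin type I receptor gene, differed by 0.23, and Grem1, a secreted antagonist of bone morphogenetic proteins, by 2.01. Grem1 was near the detection floor, with 2.29, 0, 0 and 3.3 in control and 3.57, 4.4, 3.42 and 33.3 in cKO.

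Hormone-response genes gave a mixed pattern. Of 19 genes that glucocorticoids and progestins both induce, 14 were lower and 5 higher, with a median log2 difference of -0.35. The mean log2 level of that list was 9.37 to 9.60 in control and 8.96 to 9.15 in cKO. Mt1, a metallothionein that binds zinc, had 7850, 13645, 12725 and 11418 in control and 5416, 7304, 6524 and 6488 in cKO (log2 difference -0.80, SE 0.22, adjusted p = 0.21, limma). Mt2 and the transcription factor gene Zbtb16 were also lower without overlap, with differences of -0.87 and -1.02, and Dusp1, a phosphatase of MAP kinases, was higher by 0.47. The metallothioneins can share reads. Progesterone-responsive epithelial genes divided into 8 higher and 10 lower of 18, with a median of -0.14. Alox15, Lrp2 and Fst were lower without overlap, beside 6.17% of all genes tested without overlap in either direction. The mean log2 level of this list was 8.87 to 9.13 in control and 8.21 to 8.66 in cKO, and it was not tested. Such a separation was not particular to hormone-response lists. The level of p53 target genes was 10.06 to 10.11 in control and 10.14 to 10.21 in cKO. That of EGF-family ligands and receptors was 8.00 to 8.10 and 8.11 to 8.38. Estrogen-responsive genes divided into 13 higher and 10 lower of 23, with a median of 0.04. Their mean log2 level overlapped, at 11.41 to 11.65 in control and 11.40 to 11.72 in cKO. Among steroid receptors and their helpers, the mineralocorticoid receptor gene Nr3c2 had 18.3, 12, 14.7 and 14.3 in control and 42.8, 28.2, 41 and 36.6 in cKO (log2 difference 1.27, SE 0.26, adjusted p = 0.155). Fkbp4, a chaperone of the progesterone receptor, had 5809, 6336, 6370 and 5694 in control and 4509, 4574, 5039 and 4663 in cKO, a log2 difference of -0.37.

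Secretory genes varied widely within the groups. Of 10 tissue kallikreins and serine proteases, 8 were lower, with a median of -1.12, and none had groups that did not overlap. Klk1, a secreted tissue kallikrein, had 2734, 24022, 23647 and 159 in M9 to M12 and 1001, 2397, 2852 and 32.3 in M13 to M16. In both groups the library richest in stromal transcripts, M12 or M16, held the lowest Klk1 value, and M10 and M11 were above every cKO library. Klk1b27 and Klk1b24 followed the same order, with log2 differences of -3.05 and -2.76 (adjusted p = 0.362 and 0.534), and their near-identical sequences can share reads. Hdc, which makes histamine, had 195, 1896, 1394 and 61.6 in control and 35.7, 185, 47.9 and 21.5 in cKO (log2 difference -3.02, SE 0.90, adjusted p = 0.246), and the Wnt ligand gene Wnt11 had 10.3, 316, 169 and 1.1 and 0, 12.3, 0 and 6.45. Both overlapped between the groups over all 8 libraries. Over M10 and M11 against M13 to M15 they did not overlap, but at that size 20.3% of genes tested were higher and 20.5% lower without overlap. In that same comparison the basal keratins Krt5 and Krt14 were lower, while M16 held 184 and 49.5, above all other cKO libraries. Genes higher in that comparison included Pcsk5, a proprotein convertase gene, with 41.2, 8, 6.05 and 89.1 in M9 to M12 and 63, 56.4, 47.9 and 100 in M13 to M16, the protocadherin gene Pcdh19 and the guidance receptor gene Robo1. In these 3 genes a stroma-rich control library, M9 or M12, lay above the lowest cKO library.

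Epithelial lists differed in their tallies. Of 20 epithelial identity genes, 16 were higher, with a median log2 difference of 0.19, and Krt18 and the membrane protease gene St14 differed without overlap by 0.23 and 0.29. Of 17 luminal epithelium genes 8 were higher, 1 of them without overlap, with a median of -0.07 and a lowest value of -3.41 (Wnt11). Of 7 ciliated cell genes 6 were lower and 1 was higher, without overlap, and the median was -0.14. The mean log2 level of that list, over the 13 members with values, was 3.15 to 3.43 in control and 2.69 to 2.88 in cKO. It was not tested. Of 14 EGF-family ligands and receptors, 12 were higher, with a median of 0.30. Tgfa, a ligand of the EGF receptor, had 761, 636, 687 and 769 in control and 894, 1020, 906 and 973 in cKO (log2 difference 0.41, SE 0.11, adjusted p = 0.202, limma), and the receptor gene Erbb3 was higher by 0.28. Of 20 immediate early genes, 16 were higher, with a median of 0.28, and Ier3, Dusp1 and Myc did not overlap. The immediate early genes Junb and Klf6 overlapped, with differences of 0.48 and 0.36 and, with the stromal covariate described below, adjusted p of 0.0141 and 0.0211 in limma. Tight junction genes were higher in 13 of 18, 1 of them without overlap. Cldn6 was lower without overlap, with 646, 691, 658 and 1156 in control and 427, 490.5, 432 and 569 in cKO. The cell-surface mucin Muc16 was also lower, with 144, 144, 179 and 316 in control and 45.2, 51.1, 115 and 87.1 in cKO. Of the 7 mucins 5 were higher, with a median of 0.24, and Muc13 and Cd164 were higher without overlap, by 1.28 and 0.35. In the Notch list 8 of 14 genes were higher, with a median of 0.13. Without overlap 2 were higher and 1 lower, among them the ligand gene Jag1 (-0.35) and the target Hes1 (0.27). The interferon-induced gene Mx1 had 314, 224, 215 and 290.3 in control and 416, 420, 440 and 413 in cKO, a log2 difference of 0.71, while 11 of its 20 listed genes were higher. Cell cycle genes had 14 of 30 higher and a median of -0.01, with 1 lower without overlap. No gene of these lists passed the limma test, and 6.17% of all genes tested had groups that did not overlap.

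**Figure D4:**
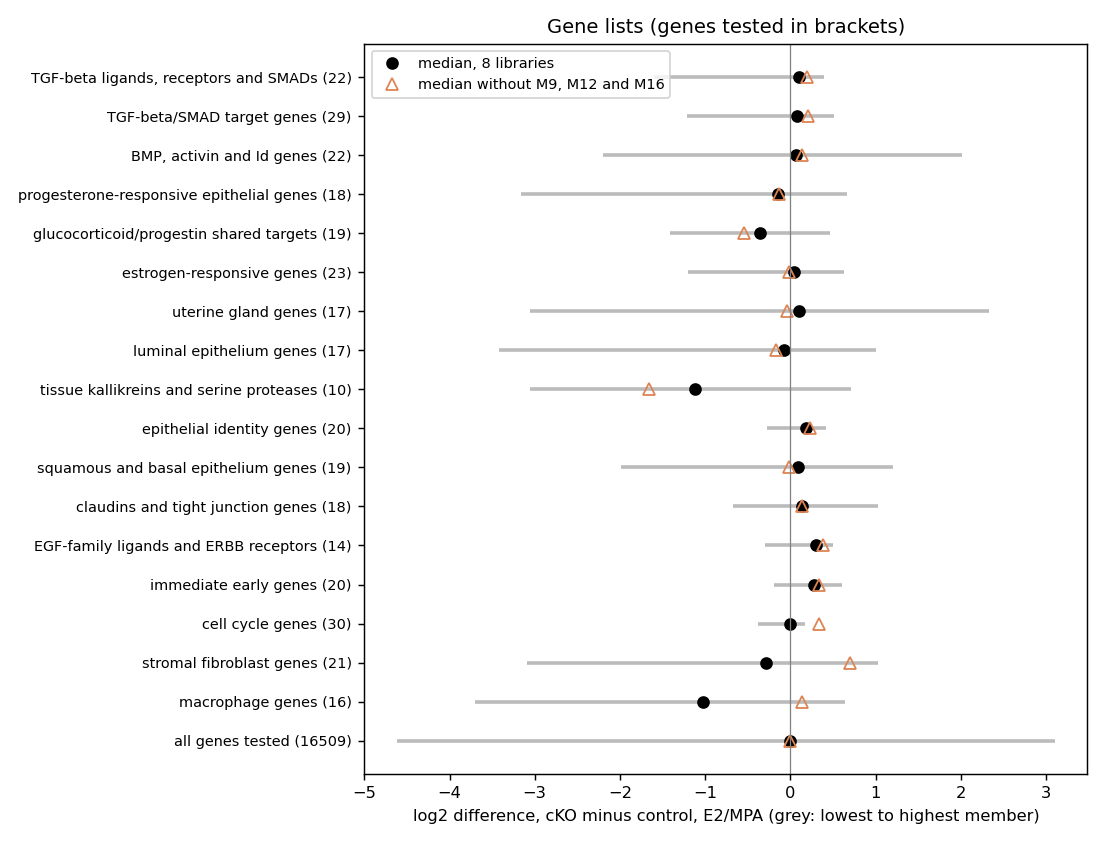
Median log2 difference between cKO and control under E2/MPA (x) for 17 gene lists and all genes tested (y, number of genes in brackets), over 8 libraries (black) and without M9, M12 and M16 (open triangles), with grey lines from the lowest to the highest member. The stromal list changes from -0.28 to 0.70 and the macrophage list from -1.03 to 0.13, while the kallikrein list goes from -1.12 to -1.66.

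Stromal and macrophage genes depended on which libraries entered. Of 21 stromal genes tested, 16 were lower and 5 higher, none without overlap, and the median was -0.28 over 8 libraries and 0.70 without M9, M12 and M16. Postn, the matrix protein periostin, had 895, 110, 130.5 and 1372 in M9 to M12 and 8.33, 50.2, 11.4 and 566 in M13 to M16, with M16 above both stroma-poor control libraries. Of 16 macrophage genes, 13 were lower with a median of -1.03, which was 0.13 without those 3 libraries. Leaving them out also turned the sign of 2982 of the 16509 genes tested.

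With the mean level of the stromal list added to the fit as a covariate, limma called 449 genes (2.72%), 281 higher (1.7%) and 168 lower (1.02%). With the same covariate edgeR called 434 genes (2.63%) and DESeq2 962 (5.83%). Of the 449, 152 higher and 62 lower genes also had groups that did not overlap. Among all genes tested 3.82% were higher and 2.35% lower without overlap. Calls and overlap were read from the same values, so the second is no separate support. For the 281 higher and 168 lower calls the median log2 difference was 0.39 and -0.86, and 22 and 72 of them reached 2-fold. Lypd5 differed by 3.07 in this fit (adjusted p = 0.0018), Palmd by 2.40 (0.0141), Cxcr4 by 2.20 (0.01), Ifi202b by -2.72 (0.0164), Fst by -2.04 (0.00952) and Lrp2 by -3.31 (0.0367). Ltbp4, Smad3, Tgif1, Ltbp1, Tgfa, Nr3c2, Fkbp4 and Mx1 were called as well, in the directions given above, with Ltbp1 higher by 0.36. Slc2a3 was not (adjusted p = 0.0576), nor were Bambi (0.0757), Alox15 (0.0835), Cdkn1a (0.0944) and Tgfbr2 (-0.23, adjusted p = 0.119).

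This larger count changed with the libraries that entered. It was 17 without M10, 17 without M11, 53 without M13, 25 without M15 and 102 without M16, against 390 to 493 without M9, M12 or M14. The genes at an unadjusted p under 0.05 in limma changed less. There were 3153 with all libraries, and from 2401 (without M10) to 3229 (without M14) when each was left out. The cause was not tested. The 11 genes called whichever E2/MPA library was left out were chosen after their values were seen. They were Lypd5, Cxcr4, Crct1, Fos, Lad1, Pkp3 and Fam83h, which were higher, and Fst, Glul, Galm and Lpgat1, which were lower. Lad1 and Pkp3 encode parts of the cell's anchoring junctions and Fam83h a keratin-organizing protein, with covariate log2 differences of 0.47, 0.34 and 0.39. Glul, glutamine synthetase, had 5891, 9906, 10659 and 3546 in control and 4089, 4698, 3729 and 2270 in cKO, a covariate difference of -1.03 (adjusted p = 0.00952). Lpgat1, a lysophospholipid acyltransferase, had 4310, 3945, 3870 and 4830 in control and 2398, 2774, 2604 and 3408 in cKO, a covariate difference of -0.58 (adjusted p = 0.0018). Without M9, M12 and M16, which leaves 2 control and 3 cKO libraries, limma called 104 genes (0.63%), 33 higher (0.2%) and 71 lower (0.43%), and without M12 and M16 alone it called 2 (0.0121%). Of the 449 genes, 54 were among them. Slc2a3 (-7.05, adjusted p = 0.0269), Slc41a3 (-2.90, 0.00648), Hdc (-4.55, 0.00751), Trpm3, a cation channel gene (-4.28, 0.006), and Klk1b27 (-3.71, 0.0139) were lower in that fit. Lypd5 (2.94, 0.0148) and Palmd (2.82, 0.0203) were higher. Some genes were named for their differences over these same E2/MPA libraries, so passing in this fit is no separate support. It also leaves out M9 and M12, the control libraries in which Slc2a3 and Hdc were nearer to the cKO libraries.

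**Figure D5:**
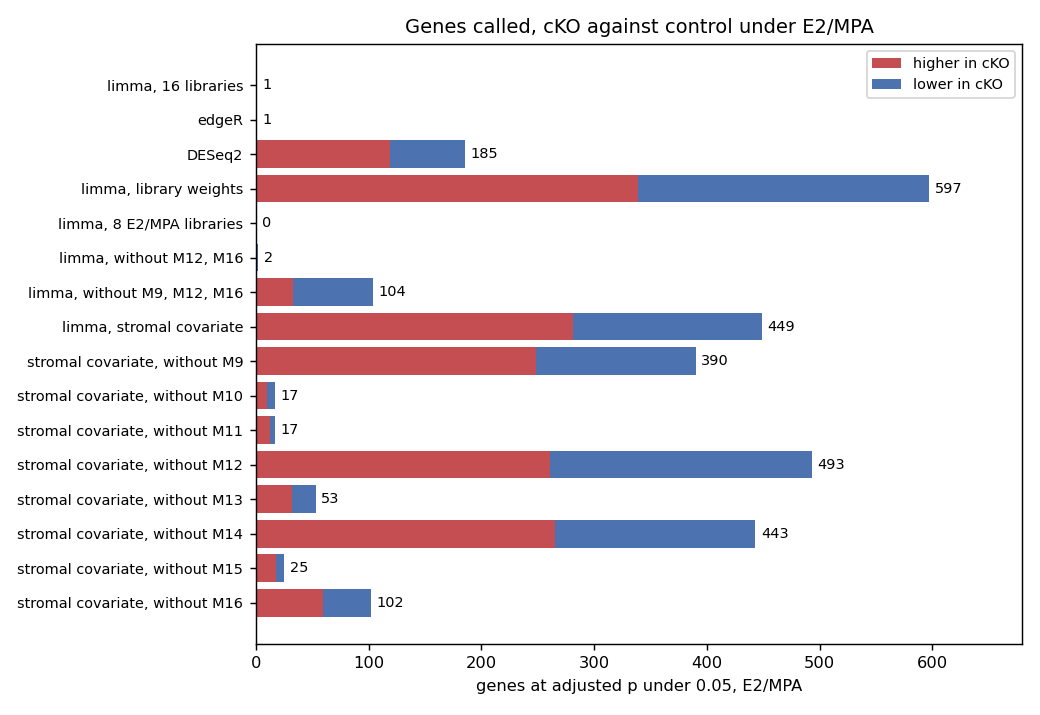
Number of genes at an adjusted p under 0.05 between cKO and control under E2/MPA (x) for each fit (y), split into genes higher (red) and lower (blue) in cKO. The count is 1 in limma over 16 libraries, 185 in DESeq2 and 449 with the stromal covariate, and the covariate count falls to 17 without M10 or M11.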

How the data were processed

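RNA from 16 organoid libraries was sequenced on an Illumina NovaSeq instrument after TruSeq preparation, per the labels' protocols. HISAT2, featureCounts, DESeq2 and the build GRCm39 are named in the submitters' processing notes, while versions and strand setting are not given in the sources used here. For 23306 genes the authors deposited a signal: each library's read counts scaled by that library's size factor. Multiplied by the factors, 100% of values were whole reads within 0.01 read. Symbols for 22484 identifiers came from GENCODE M21, and no coordinates of the files' build were used.

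Values were analysed as log2(value + 1), which understates the change of low genes. Genes reaching 10 in 4 or more libraries (16509) entered 1 limma (3.58.1, R 4.3.3) fit of the 4 group means over 16 libraries, with trended variance and Benjamini-Hochberg adjustment at 0.05. edgeR 4.0.16 and DESeq2 1.42.0 were run on the recovered reads. The limma and edgeR fits were run on simulated counts, and DESeq2 was not. The simulation held no stromal variation and 1 fixed spread for all genes, so it cannot show how the fits behave on libraries as uneven as these. Genes were named when limma, edgeR or DESeq2 called them (up to 10 per tool), when they were among the 15 largest differences per direction without overlap and with a mean of at least 50, by the same rule in the 5 stroma-poor libraries (10 per direction), or as up to 4 such members of a list. Tgfbr2, Pgr and Esr1 were always named, and exceptions are stated. Further genes from the lists that were called with the stromal covariate, such as Ltbp1, Junb, Klf6, Calml3 and Postn, were chosen after their values were seen. Postn is itself a member of the stromal list whose mean is the covariate, so its call is partly an adjustment for itself. The members and lists were chosen with earlier results of these data known. Whether each library is a separate animal is not stated in the labels, and p-values then cover only the spread among these samples, possibly technical. Every pair of replicate E2/MPA libraries differed beyond sampling noise, the closest being M10 and M11 (chi-square 7.70 per degree of freedom).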

Additional observations from a re-analysis of the deposited data

Results flagged for a closer look

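In each group of 4 libraries, the highest or lowest value was marked where its gap to the next one took up most of the group's range, by Dixon's 95% limit. This was applied to 268 groups of values (89 genes and 45 lists in both E2/MPA groups) and marked 26. Chance marks about 1 in 20 groups of normally distributed values, and genes and lists share the same libraries. The gene counts entered without a log, so that rate may not hold for them. M16 gave 12 of the marks and M12 gave 5. In the cKO library M16 the normalized counts that stood alone were those of Adamts8 (3.23, the next 26.2), Krt5 (184, the next 2.38), Krt14 (49.5, the next 3.42), Fos (3634, the next 2108), Postn (566, the next 50.2) and Grem1 (33.3, the next 4.40). The mean log2 level of M16 stood alone in the list of TGF-beta/SMAD target genes (9.46, the next 8.38), BMP, activin and Id genes (7.35, the next 6.78), stromal fibroblast genes (8.51, the next 5.68), decidual stromal genes (7.43, the next 5.89), hedgehog pathway genes (6.81, the next 5.84) and serpin and other protease inhibitor genes (8.87, the next 7.85). In the control library M12 the normalized counts that stood alone were those of Pgr (1252, the next 2032), Mrc1 (419, the next 50.1), Erbb3 (2999, the next 3423) and Cldn6 (1156, the next 691). The mean log2 level of M12 stood alone in the list of progesterone-responsive epithelial genes (9.13, the next 8.91). In the control library M9 the normalized counts that stood alone were those of Nt5c1a (207, the next 137) and Mt2 (735, the next 1209). The mean log2 level of M9 stood alone in the list of estrogen-responsive genes (11.65, the next 11.45). In the control library M10 the normalized counts that stood alone were those of Krt5 (286, the next 32.8), Krt14 (113, the next 15.6) and Smad3 (2540, the next 2856). The mean log2 level of M11 stood alone in the list of secreted innate defence genes (10.68, the next 10.81). In the cKO library M14 the normalized counts that stood alone were those of C2cd4a (174, the next 285) and Hdc (185, the next 47.9). The stromal fibroblast, decidual stromal and hedgehog lists were marked in M16 together.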

How the results depend on the processing

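The count of genes called between cKO and control under E2/MPA was 1 in limma and stayed at 1 with edgeR, other pseudocounts, filters and scalings. It was 185 with DESeq2, 0 with the 8 E2/MPA libraries only, 597 with library weights, 449 with the stromal covariate, 2 without M12 and M16, and 104 without M9, M12 and M16. It ranged from 0 to 10 when each library was left out, with 10 without M12, 3 without M1, 2 without M2 and 0 without M9, M11, M13, M14 or M15. The cause was not tested. Alternatives with the stromal covariate were added after seeing the data and called 706 genes over the 8 E2/MPA libraries, 434 with edgeR, 962 with DESeq2 and 435 with a random block, and 17 to 493 when each E2/MPA library was left out. Under vehicle the count was 0 in limma, 2 with a minimum of 50, 14 with DESeq2, 5 with library weights, 1 with a random block pairing libraries 8 numbers apart, 8 with the stromal covariate, and 0 to 2 when each library was left out. The count for the difference between the treatments was 0, and 5 without M9, M12 and M16. No paired analysis was possible because the labels give the groups no shared replicate numbers. A random block of libraries 8 numbers apart, a pairing read from the numbering and the data and not from the labels (correlation 0.496), left the E2/MPA count at 1 and the count for the difference between the treatments at 0, and raised the genes at an unadjusted p under 0.05 for that difference from 309 to 1056. The log2 differences of the 89 genes in the text kept their sign in all 3995 values under 33 planned and 12 added settings. For 65 of these genes the groups do not overlap, which fixes that sign when a library is left out, so it is no sign of stability. Of all genes tested, 679 changed sign with the covariate and 2982 without M9, M12 and M16. Lypd5 passed 0.05 in 39 of 45 settings, with an adjusted p of 4.57e-11 to 0.0806. Counting depth limits Lypd5, which had 31 reads over the control libraries.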
